A study of Mus musculus and Mus musculus x Mus spretus with 8 samples.

Results

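The 55 genes described here take glucose into the cell, split it to pyruvate, exchange pyruvate with lactate, and burn it in the citric acid cycle. They were taken from a list of named genes, and all 55 were among the 24060 gene symbols measured. The list holds 21 genes from glucose entry to lactate dehydrogenase, 13 genes of lactate and pyruvate transport and the pyruvate dehydrogenase system, and 21 genes of the cycle and of enzymes that connect to it. Sorted by reaction they fill 28 steps, of which many can be carried out by several related genes. Succinate dehydrogenase is not on the list, nor is Pcx.

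The data come from 8 single glomus cells, the oxygen-sensing cells of the carotid body, each picked for expression of Th, Uchl1 and Kcnk3. All 8 came from wild-type mouse pups at postnatal day 4 to 5. The strain label is C57BL/6 for 7 cells and C57BL/6 X SPRET/EiJ for cell 2. The labels name 1 group and no animal, so the 8 cells count as 1 sample: no test was made between cells, and every median, range and SD describes these 8 cells alone.

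Glycolysis runs in the cytosol and ends in pyruvate, which lactate dehydrogenase can reduce to lactate or which the mitochondrial pyruvate carrier can bring to the pyruvate dehydrogenase complex. That complex makes the acetyl-CoA that enters the citric acid cycle, and its kinases (Pdk) switch it off while its phosphatases (Pdp) switch it on. Many of the enzymes exist as isozymes made from separate genes, some of which are known to be induced by hypoxia through the HIF transcription factors. Glomus cells depolarise when oxygen falls, and their mitochondrial metabolism has long been studied as a part of oxygen sensing.

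The counts summed to between 3960200 and 30218206 reads per cell, the highest in cell 2. Levels are RPM, the read count scaled to the same total in each cell, and detection means a level of at least 1 RPM. Where a gene had 0 reads, its level may lie anywhere below that of 3 reads, which is between 0.0993 RPM (cell 2) and 0.758 RPM (cell 1). Only counting error enters this limit, because reads were amplified by PCR and no molecular identifiers are mentioned. Of 10 glomus cell markers, all 10 were detected in at least 6 cells, with a summed level of 9617 RPM in cell 4 and 17150 to 26980 RPM in the others. Th, Uchl1 and Kcnk3 are among the 10, and their detection was set in advance because the cells were picked for them. Cell 4 also differed in a list of 5 noradrenergic neuron genes, which summed to 10320 RPM there and to 322.9 to 3315 RPM in the other 7, and of 5 genes of dividing cells it alone detected Mki67 (149 RPM), with the other 4 at 0 reads there. Endothelial, myeloid and red cell markers had 0 reads in every cell, and no fibroblast marker was detected. Of 6 glial markers, 0 were detected in at least 6 cells, although their sum reached 71.6 RPM in cell 2 and 153.5 RPM in cell 8. The 5 smooth muscle and pericyte markers summed to between 0 and 354.7 RPM, highest in cell 3, where Pdgfrb made up 350.2 RPM and Acta2, Tagln, Myh11 and Cspg4 did not pass 3.20 RPM. The part of these differences in the results below was not tested.

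Most of the pathway was present, but not evenly. Of the 55 genes, 29 (52.7%) were detected in at least 6 cells, beside 14.2% of all symbols in the table, and 14 were detected in all 8 cells, beside 4.88% of all symbols. Without cell 4, 30 genes were detected in at least 5 of the 7 cells left, and without cell 2, 31. In no cell did Hk2, Gapdh, Pgam1, Pdk4 or Pck1 reach 1 RPM, and Hk2, Pdk4 and Pck1 had no read in any cell. The coverage was 9 of 21 in glycolysis, 7 of 13 in transport and pyruvate dehydrogenase, and 13 of 21 in the cycle and its connected enzymes. Among the 29 genes the median of the median levels was 129 RPM, and the median SD of log2(RPM + 1) over cells was 2.58. The same values over the 3422 symbols that were detected as often were 91.0 RPM and 2.77.

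**Figure D1:**
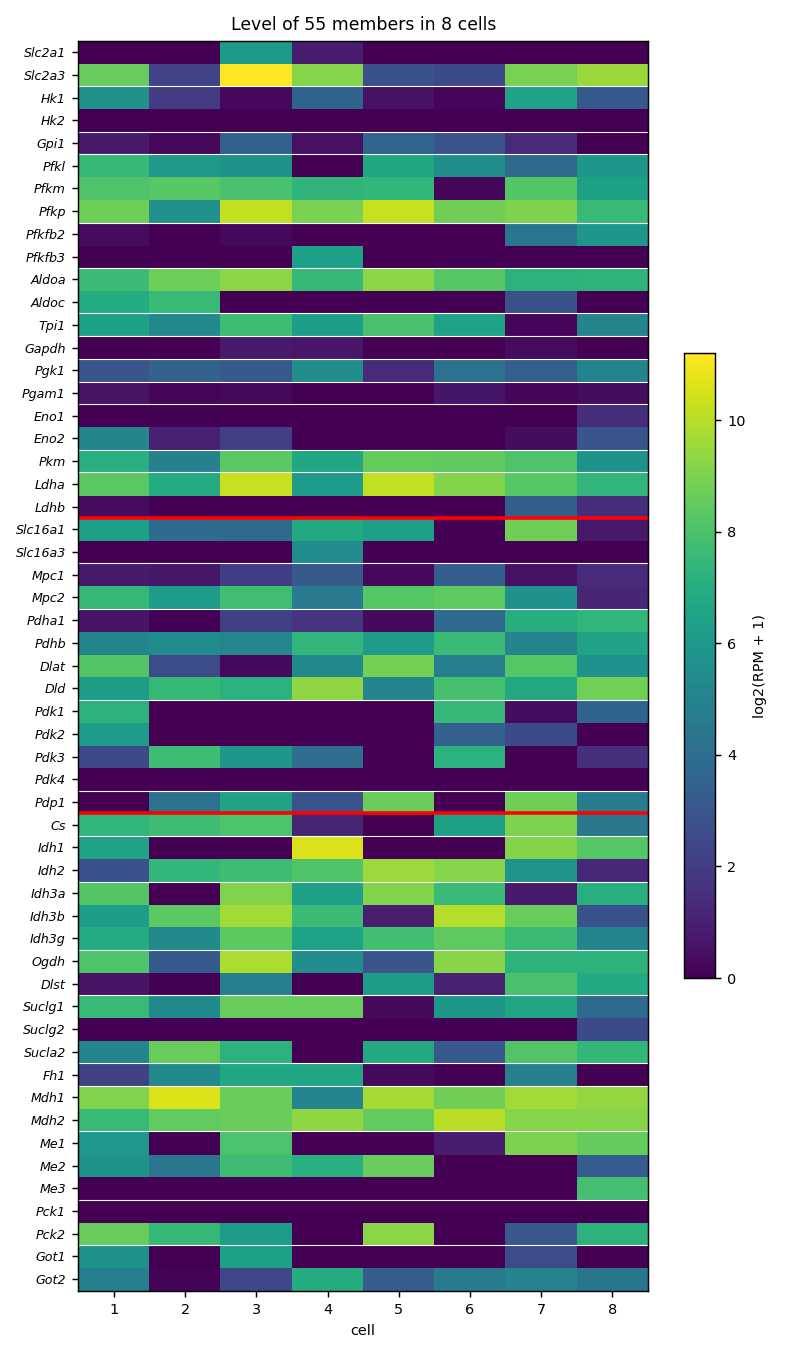
Level of each of the 55 genes (rows, in pathway order) in each of the 8 cells (columns), as log2(RPM + 1). White lines part the steps and red lines part glycolysis, transport with pyruvate dehydrogenase, and the cycle. Rows such as Aldoa, Mdh1 and Mdh2 are bright in nearly all cells, while Hk2, Pdk4 and Pck1 are empty.

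Counted by step, 13 of the 28 had a detected gene in all 8 cells. Several steps of glycolysis were thinly covered: glyceraldehyde phosphate dehydrogenase and phosphoglycerate mutase were filled in 0 cells, the makers of fructose 2,6-bisphosphate in 3, glucose phosphate isomerase and enolase in 4, and hexokinase in 5. In the cycle, fumarase was also filled in 5. Between 18 (cell 6) and 24 (cells 3 and 7) of the 28 steps were filled in a cell.

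**Figure D2:**
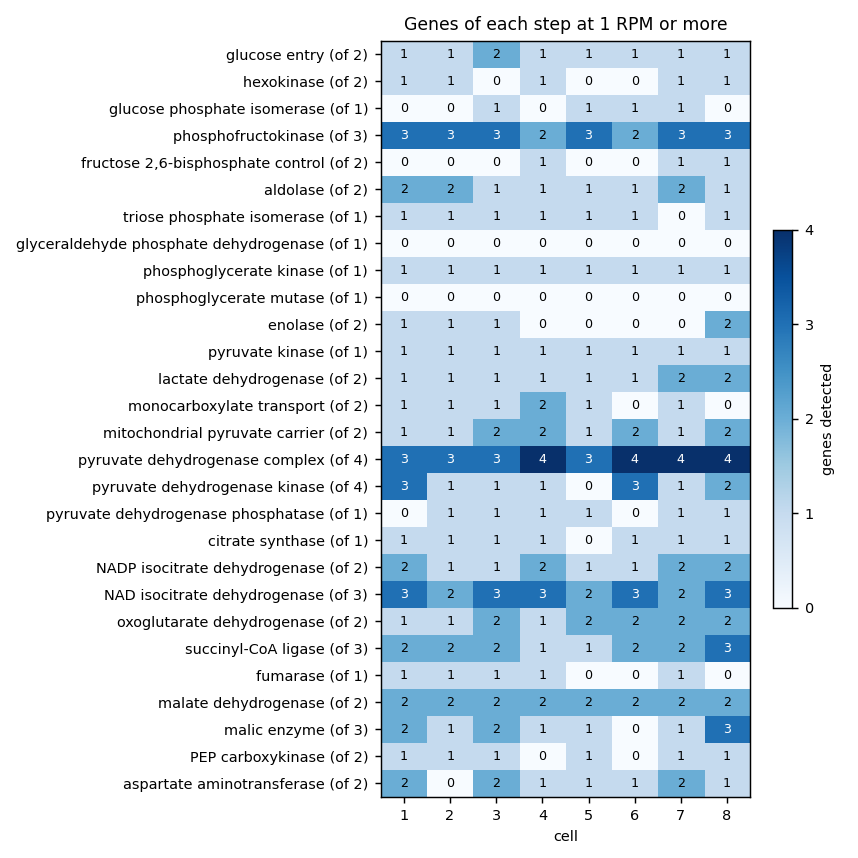
Number of genes at 1 RPM or more for each of the 28 steps (rows, with the number of genes listed for the step) in each of the 8 cells (columns). Malate dehydrogenase has both genes in every cell, while the rows of glyceraldehyde phosphate dehydrogenase and phosphoglycerate mutase hold 0 throughout.

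At glucose entry the cells used Slc2a3, which encodes the high-affinity transporter GLUT3 best known from neurons, and seldom Slc2a1, which encodes the widespread and hypoxia-inducible GLUT1. Slc2a3 (chromosome 6, 122727809 to 122801640, minus strand, in build GRCm38) ranged from 3.71 to 2348 RPM with a median of 436 RPM. Its levels fell into separate ranges: cells 2, 5 and 6 held at most 5.81 RPM, and the other 5 held at least 391 RPM. Slc2a1 was detected in cell 3 alone, at 68.2 RPM, the same cell in which Slc2a3 was highest, and had 0 reads in 6 cells.

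Hexokinase, which traps glucose by phosphorylating it, was low. Hk1, the isozyme of brain and many other tissues, was detected in 5 cells (median of all 8, 5.20 RPM), from 2.85 RPM in cell 2 to 87.7 RPM in cell 7. In cells 3, 5 and 6 it did not reach 1 RPM. Hk2, the insulin- and hypoxia-responsive isozyme of muscle and tumours, had 0 reads in all 8 cells.

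Gpi1, the isomerase that follows, was detected in 4 cells at no more than 11.6 RPM. Phosphofructokinase, the main control point of glycolysis, was in contrast abundant and was made from all 3 of its genes in 6 cells. Per kb of the longest transcript, the scale used here to compare different genes, Pfkp (platelet type) was the highest in 7 cells with a median of 112 RPM per kb, ahead of Pfkm (muscle type, 73.9 RPM per kb) and Pfkl (liver type, 14.7 RPM per kb). The exception was cell 2, in which Pfkm (315 RPM) stood above Pfkl (64.1 RPM) and Pfkp (49.0 RPM), and did so per kb as well. Each of the lesser genes was missing once: Pfkl had 0 reads in cell 4, and Pfkm was at 0.141 RPM in cell 6.

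The bifunctional enzymes that set fructose 2,6-bisphosphate, an activator of phosphofructokinase, were seen in few cells. Pfkfb2 was detected in cells 7 (20.2 RPM) and 8 (58.8 RPM). Pfkfb3, a hypoxia-inducible form, was detected only in cell 4 (77.9 RPM) and had 0 reads in the other 7. No cell detected both.

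Aldolase A (Aldoa) had one of the steadiest levels of the pathway, from 146 to 602 RPM with a median of 258 RPM and an SD of 0.85 in log2(RPM + 1). Aldolase C (Aldoc), the brain type, was detected in 3 cells, at 121 RPM in cell 1, 186 RPM in cell 2 and 6.17 RPM in cell 7, always below Aldoa. Triose phosphate isomerase (Tpi1) ranged from 33.1 to 250.3 RPM in 7 cells and had a single read in cell 7 (0.154 RPM).

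In the lower part of glycolysis, present and missing steps followed one another. Gapdh, the oxidising step often taken as a housekeeping gene, had 9 reads in all 8 cells together. Phosphoglycerate kinase (Pgk1) was detected in every cell at 1.56 to 45.3 RPM. Pgam1, the mutase, had 14 reads in all, and enolase 1 (Eno1) was detected in cell 8 alone at 1.74 RPM. Neuronal enolase (Eno2) was detected in 4 cells, highest in cell 1 at 33.3 RPM. Pyruvate kinase (Pkm) was detected in all 8 cells at 28.6 to 374 RPM, with a median of 198 RPM.

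Several of these genes have near-identical copies elsewhere in the genome, mainly processed pseudogenes, and how reads with several matching places were counted is not given in the sources used here. For 10 of the 55 genes more than 50% of the longest transcript lay in such copies (at least 95% identity over at least 50 bases). These are Gpi1 (54.6%), Pgk1 (68.8%), Eno1 (85.6%), Pkm (65.5%), Pdhb (71.2%), Me1 (60.1%), Got2 (72.5%), Gapdh, Ldha and Ldhb. Levels of these 10 are uncertain. Of them 5 were detected in at least 6 cells, and of the other 45 genes 24 were. Pgam1 (43.1%) and Suclg2 (41.1%) came next. The part of the copies in the low values was not tested.

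Gapdh (chromosome 6, 125161715 to 125166467, minus strand) is shown as an example, and the part of copies in its low level was not tested. Bases 301 to 360 of the coding region are shown beside the same stretch of 2 copies from the GENCODE transcripts, since a short read from here cannot or can hardly be told from them. A capital marks the base that differs from Gapdh.
Gapdh: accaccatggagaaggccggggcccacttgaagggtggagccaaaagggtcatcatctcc
Gm5069: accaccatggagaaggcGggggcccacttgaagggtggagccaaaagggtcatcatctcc
Gm12070: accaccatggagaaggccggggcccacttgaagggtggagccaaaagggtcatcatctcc
Both copies are among the symbols measured, while most of the 82 other genes that hold part of the Gapdh transcript are not. Vmn2r60, another symbol that holds a copy (60.8% of the transcript), is listed too, and its level is not reported here. Gm12070 had 0 reads in every cell, and Gm5069 never passed 0.565 RPM, so almost no reads were listed under these 2 symbols either.

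**Figure D3:**
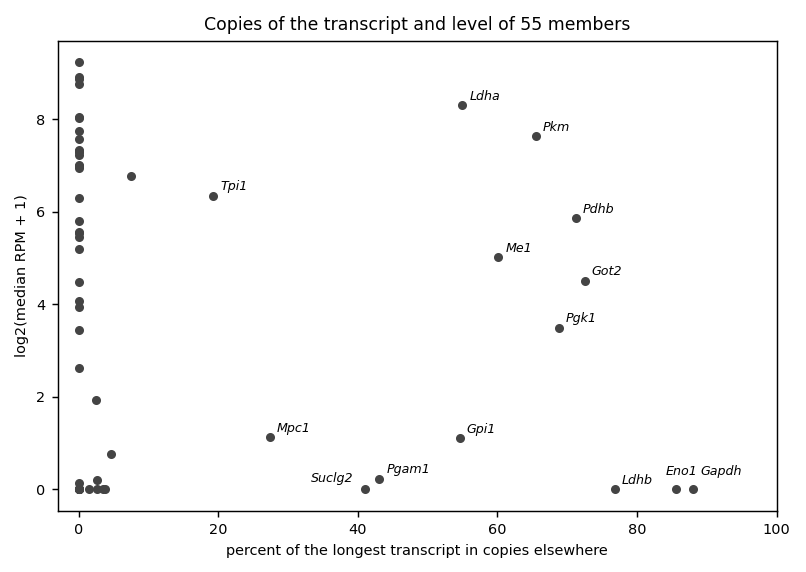
Share of each gene's longest transcript that lies in near-identical copies elsewhere (horizontal axis, percent) against log2(median RPM + 1) over 8 cells (vertical axis), 1 point per gene for 55 genes. Genes above 15% are named. Ldha and Pkm are high despite copies over more than 50% of the transcript, while Gapdh, Eno1 and Ldhb lie at a median of 0.

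Pyruvate's exchange with lactate rested on Ldha, the form that favours lactate production, which was detected in all 8 cells at 72.2 RPM (cell 4) to 1227 RPM (cell 3). Ldhb, the heart form, was detected in cells 7 (9.40 RPM) and 8 (1.74 RPM). The difference of log2(RPM per kb + 1) lay between 4.38 and 9.40 in favour of Ldha in the 8 cells, with copies in both genes as given above.

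Lactate leaves or enters cells through monocarboxylate transporters. Slc16a1 (MCT1; chromosome 3, 104638668 to 104658462, plus strand) was detected in 6 cells with a median of 46.3 RPM over all 8, was highest in cell 7 (431 RPM) and had 0 reads in cell 6. Slc16a3 (MCT4; chromosome 11, 120948480 to 120960868, plus strand), a hypoxia-inducible exporter of highly glycolytic cells, was detected in cell 4 alone (42.9 RPM) and had 0 reads in the other 7. Their chaperone basigin (Bsg) was detected in all 8 cells at 234 to 1732 RPM. Embigin (Emb), a second chaperone of such transporters, was detected in 5.

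HIF binds DNA at a short core, of which only the form ACGTG was searched here. Both strands of the 250 bases before the RefSeq start of each gene were searched (build GRCm38.p6). Below, the core means ACGTG, and other forms were not counted. A window was found for 51 of the 55 genes, with no entry for Slc2a3, Pdp1, Idh3a and Me2. The core lay in 17 of 51 windows (33.3%), beside 16.6% of all 32851 windows of the same length. Each listed gene gave only the window nearest the start of its longest transcript, while the 32851 include every window, several for some genes. These shares are thus not counted alike, and enrichment was not tested. Among the listed genes, the core lay in 9 of 25 windows (36.0%) of those detected in at least 6 cells and in 8 of 26 (30.8%) of the others. Windows with the core are printed for 2 genes that the cells expressed widely, Pgk1 and Slc16a1, and for 2 that they did not, Hk2 and Slc16a3. Capitals mark the core or its reverse complement. A match is a description of letters, not of a bound site.
Pgk1 (chrX:106186850-106187099, plus strand): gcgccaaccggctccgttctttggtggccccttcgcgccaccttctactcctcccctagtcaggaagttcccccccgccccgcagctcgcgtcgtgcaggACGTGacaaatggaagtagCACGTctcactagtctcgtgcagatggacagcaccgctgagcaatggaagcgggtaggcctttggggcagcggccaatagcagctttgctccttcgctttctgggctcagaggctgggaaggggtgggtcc
Slc16a1 (chr3:104638414-104638663, plus strand): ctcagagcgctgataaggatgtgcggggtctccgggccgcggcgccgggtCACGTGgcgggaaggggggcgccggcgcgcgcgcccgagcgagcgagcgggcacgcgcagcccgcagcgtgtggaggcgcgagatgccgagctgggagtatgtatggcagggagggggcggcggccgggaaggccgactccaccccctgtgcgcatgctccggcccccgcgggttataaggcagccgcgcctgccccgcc
Hk2 (chr6:82774455-82774704, minus strand): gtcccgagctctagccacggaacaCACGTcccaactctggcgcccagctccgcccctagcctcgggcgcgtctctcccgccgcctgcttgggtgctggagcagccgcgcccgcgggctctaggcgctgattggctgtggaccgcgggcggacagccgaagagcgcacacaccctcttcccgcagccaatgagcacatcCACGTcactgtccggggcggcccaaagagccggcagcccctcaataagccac
Slc16a3 (chr11:120948817-120949052, plus strand): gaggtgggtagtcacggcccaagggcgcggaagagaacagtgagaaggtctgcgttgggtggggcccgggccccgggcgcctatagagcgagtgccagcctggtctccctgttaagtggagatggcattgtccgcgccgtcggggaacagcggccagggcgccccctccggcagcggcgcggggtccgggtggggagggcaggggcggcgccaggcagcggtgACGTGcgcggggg
Pgk1 has matches starting 150 and 131 bases before the start and Hk2 at 226 and 52. In Slc16a1 the matches at 200 and 199 are the 2 strands of a single CACGTG. In Slc16a3 a match begins 27 bases before the start. A second begins in the last 14 bases of the window, which lie in an annotated exon and are not printed. The core was thus present in the window of Hk2, which had 0 reads in every cell, as well as in windows of detected genes. The windows of Pdk4 and Pck1, which also had 0 reads in every cell, did not hold it.

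Pyruvate enters mitochondria through a carrier of 2 subunits. Mpc2 was detected in all 8 cells at 1.31 to 339 RPM with a median of 123 RPM. Mpc1 was detected in 4 cells at no more than 9.19 RPM, and 27.4% of its transcript lies in copies. Per kb, Mpc2 was higher in 7 cells, and cell 8 had both near the detection limit (Mpc1 1.60 RPM, Mpc2 1.31 RPM). An antisense gene overlaps 23.1% of Mpc1 exons, but it had reads in cell 6 alone.

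Of the pyruvate dehydrogenase complex, all 4 listed genes were detected in cells 4, 6, 7 and 8. The gene of its E3-binding protein, Pdhx (chosen for mention with its values known), reached 1 RPM only in cell 1 (91.4 RPM). Dld, the E3 subunit that other dehydrogenases share, was detected in every cell at 32.2 to 654 RPM, and Pdhb, the E1 beta subunit, at 32.8 to 200 RPM. Dlat, the E2 core, missed only cell 3 (0.188 RPM) and reached 464 RPM in cell 5. The E1 alpha subunit Pdha1 was the uneven one: it stood at 125 RPM in cell 7 and 164.5 RPM in cell 8, at 13.0 RPM or below elsewhere, and had 0 reads in cell 2. Its antisense neighbour Map3k15 overlaps 16.1% of its exons and was likewise highest in cells 7 (48.4 RPM) and 8 (62.0 RPM). The strand setting of the counts is not given in the sources used here, so reads of these 2 genes cannot be told apart.

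Among the kinases that inhibit the complex, Pdk3 was the most widespread. It was detected in 6 cells, highest in cell 2 (209 RPM), with a median of 9.86 RPM. Pdk1, a hypoxia-inducible form, was detected in 3 cells at 145 RPM (cell 1), 176 RPM (cell 6) and 11.2 RPM (cell 8). Pdk2 was also detected in 3 cells, with its highest level of 69.4 RPM in cell 1. Pdk4, the form of fasting muscle and liver, had 0 reads in all cells. Which kinase gene led per kb thus changed from cell to cell: Pdk3 in cells 2, 3, 4 and 6, Pdk2 in 1 and 7, Pdk1 in 8, and none in 5. The opposing phosphatase Pdp1 was detected in 6 cells and was highest in cells 5 (392 RPM) and 7 (427 RPM), where Pdk3 had 0 reads.

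The citric acid cycle was covered better. Citrate synthase (Cs), the entry step, was detected in 7 cells at 1.21 to 530.1 RPM and had 0 reads in cell 5. The NAD-dependent isocitrate dehydrogenase needs 3 gene products. Its regulatory subunit gene Idh3g was detected in all 8 cells at 31.9 to 356 RPM, Idh3b in 7 and the catalytic subunit gene Idh3a in 6. All 3 were present together in 5 cells. Idh3a had 0 reads in cell 2, the deepest cell, which held 329 RPM of Idh3b.

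The NADP-dependent isocitrate dehydrogenases, cytosolic Idh1 and mitochondrial Idh2, split the cells into 4 and 4. Idh1 (chromosome 1, 65158616 to 65186500, minus strand) was detected in cells 1, 4, 7 and 8, at 86.1, 1579, 551 and 302 RPM, and had 0 reads in cells 2, 3, 5 and 6. Idh2 (chromosome 7, 80094846 to 80115392, minus strand) was detected in all 8, at 6.06, 275, 55.2 and 1.45 RPM in the same 4 cells that held Idh1 and at 170, 208, 757 and 574 RPM in cells 2, 3, 5 and 6. Per kb each gene led in 4 cells, and the within-cell difference ran from -8.76 to 6.17 log2 units, the widest range of the 25 pairs. The median of -2.25 has no stable sign, since it was 2.11 when any of cells 2, 3, 5 and 6 was left out. The 2 ranges of Idh2 overlapped, since cell 4 held 275 RPM of Idh2 beside the highest Idh1 (1579 RPM). A high level of 1 gene thus did not go with a low level of the other in every cell. How many other gene pairs part the cells as clearly was not counted.

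Oxoglutarate dehydrogenase Ogdh was detected in all 8 cells at 6.70 to 897 RPM, but its E2 partner Dlst in 5, at or below 1.13 RPM in cells 1, 2, 4 and 6. Succinyl-CoA ligase combines Suclg1 with either Sucla2 (ATP-forming) or Suclg2 (GTP-forming). Sucla2 was detected in 7 cells with a median of 129 RPM, whereas Suclg2 was detected in cell 8 alone (4.79 RPM) and had 0 reads elsewhere. Suclg1 was detected in 7 cells as well, and the missing cells differed: cell 5 for Suclg1 (0.224 RPM) and cell 4 for Sucla2 (0 reads). Fumarase (Fh1) was detected in 5 cells at up to 104 RPM.

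Malate dehydrogenase, which closes the cycle, was the only step with several genes of which every cell detected all. Mitochondrial Mdh2 was the steadiest gene of those detected in at least 6 cells, at 191 to 1058 RPM with an SD of 0.74 in log2(RPM + 1). Cytosolic Mdh1 reached 1572 RPM in cell 2 and was at least 416 RPM in every cell but cell 4, which held 32.2 RPM. Per kb Mdh1 led in cells 1, 2 and 5 and Mdh2 in the other 5, with a median difference of -0.19 log2 units. On plain RPM the median difference was 0.35, so its sign depends on the scale.

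Around the cycle, the genes detected varied between cells. Of the malic enzymes, which turn malate into pyruvate, mitochondrial Me2 led per kb in cells 1 to 5 and cytosolic Me1 in cells 7 and 8. In cells 1 and 3 the 2 genes lay within 0.05 log2 units of each other. Me3 was detected in cell 8 alone (230.3 RPM), and cell 6 had no malic enzyme gene at 1 RPM. Mitochondrial PEP carboxykinase Pck2 was detected in 6 cells at up to 602 RPM, with 0 reads in cells 4 and 6, while cytosolic Pck1, the liver and kidney form, had none anywhere. Mitochondrial aspartate aminotransferase Got2 was detected in 7 cells at 4.33 to 121 RPM, and cytosolic Got1 in cells 1, 3 and 7.

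Set side by side, 10 of the 25 pairs had the same gene higher per kb in at least 7 cells. How often pairs of other genes do so was not counted, and the phosphofructokinase pairs share genes. The higher genes were Slc2a3, Hk1, Pfkp (over both relatives), Pfkm over Pfkl, Aldoa, Ldha, Slc16a1, Mpc2 and Sucla2. Mpc1 and Mpc2 are subunits of the same carrier, so their pair is not a choice between isozymes. The lead of Hk1 over Hk2 rests on 2 reads or fewer in cells 3, 5 and 6. That of Slc16a1 rests in cell 8 on 5 reads (0.726 RPM), below the detection limit. Differences against a gene at 0 depend on the 1 RPM per kb that is added before the logarithm. The remaining 15 pairs, among them all those of the Pdk and malic enzyme genes, had no gene that led so often.

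**Figure D4:**
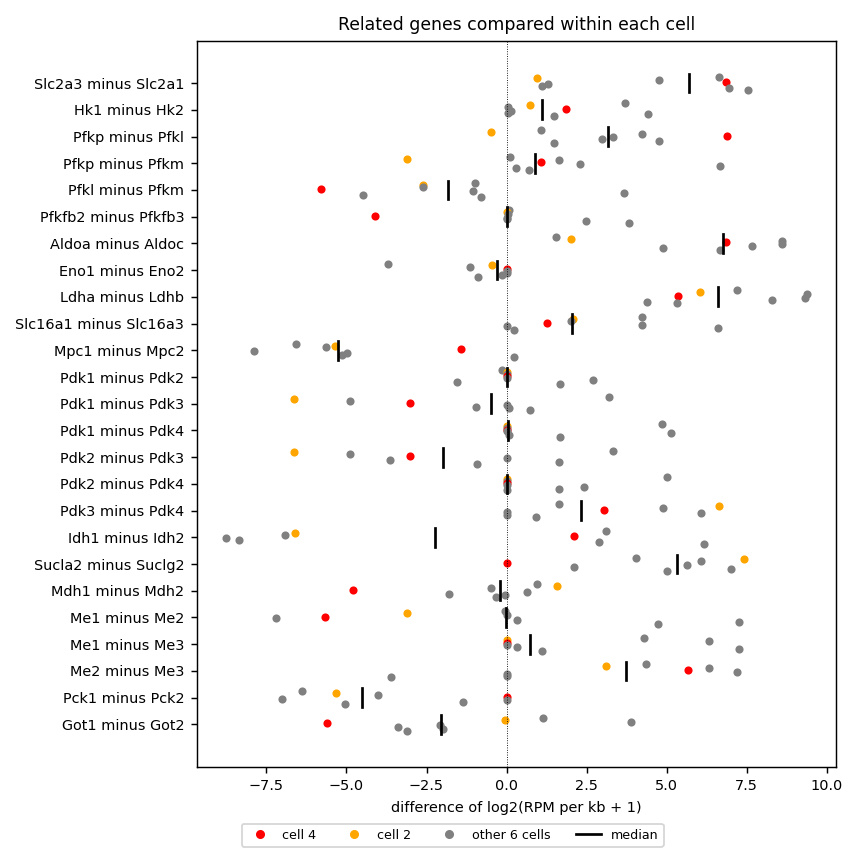
Within-cell difference of log2(RPM per kb + 1) for 25 pairs of related genes (rows), 1 point per cell and a black bar at the median. Points right of the dotted line mean that the first gene was higher. Aldoa minus Aldoc and Ldha minus Ldhb lie to the right in all 8 cells, while Idh1 minus Idh2 falls on both sides with 4 cells each.

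The summed level of the 55 genes was 0.513% to 1.20% of a cell's reads, with a median of 0.696% and an SD of 0.232 over the 8 cells. Cell 3 was the highest, at 11970 RPM, of which 6254 RPM came from glycolysis. Glycolysis sums ranged from 1238 RPM (cell 2) to 6254 RPM, a wider span than the sums of the cycle, which lay between 2574 and 5154 RPM. The highest single gene was Mdh1 in cells 1, 2 and 7, Slc2a3 in cells 3 and 8, Idh1 in cell 4, Pfkp in cell 5 and Mdh2 in cell 6.

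**Figure D5:**
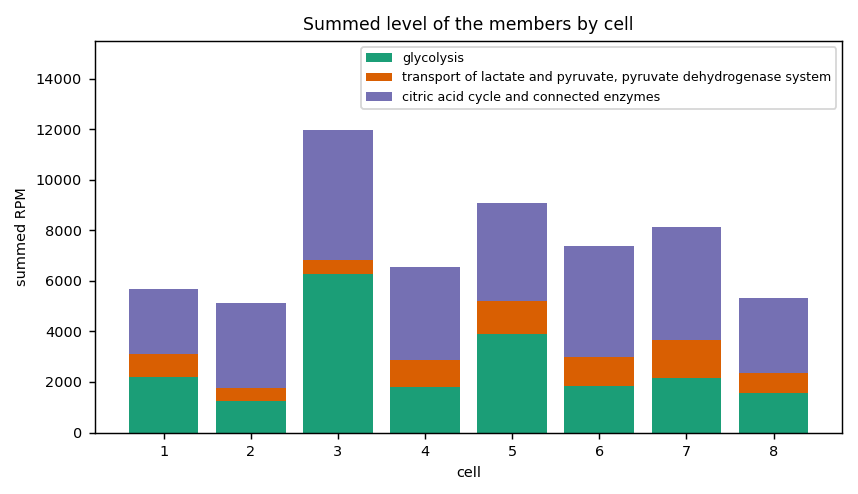
Summed RPM of the 55 genes in each of the 8 cells (bars from 0), parted into glycolysis, transport with the pyruvate dehydrogenase system, and the citric acid cycle with its connected enzymes. Cell 3 has the tallest bar (11970 RPM) and the largest glycolysis part (6254 RPM), and cell 2 the smallest glycolysis part (1238 RPM).

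Cell 4, which stood apart in the marker lists, was set against the range of the other 7 cells with a margin of 2 units of log2(RPM + 1). Of 38 members detected in at least 4 cells, 0 lay above the range and 3 (Pfkl, Sucla2 and Mdh1) below it. Over all 5936 symbols detected as often, cell 4 was above in 1.55% and below in 3.87%. The members that cell 4 alone detected, Pfkfb3 and Slc16a3, were in too few cells to enter this count. The other cells lay outside in at most 1 member each: cell 1 was above in Eno2, and below were Got2 in cell 2, Dlat in cell 3, Suclg1 in cell 5, Pfkm in cell 6, Tpi1 in cell 7 and Mpc2 in cell 8. Over all 5936 symbols these 7 cells were above in 0.91% (cells 1 and 8) to 1.84% (cell 5). They were below in 0.354% (cell 1) to 4.46% (cell 5), so cell 4 was not the most extreme by this count.

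Isozymes known from liver, muscle, testis and other restricted sites were nearly silent. Of 22 such genes for the same steps, 0 were detected in at least 6 cells, 19 were detected in no cell and 17 had no reads at all. Of all 24060 symbols, 3422 (14.2%) were detected in at least 6 cells, 13292 were detected in no cell and 12438 had no reads. Muscle enolase Eno3 was detected in cells 6 (74.4 RPM) and 7 (34.4 RPM), neither of which had Eno1 or Eno2 at 1 RPM. Pfkfb4 was detected in cells 1 (7.07 RPM) and 2 (2.18 RPM). Gapdhs, the sperm form of Gapdh, did not pass 0.580 RPM.

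Of 22 genes of shuttles and branches that leave these pathways, 8 were detected in at least 6 cells, beside 14.2% of all symbols. The 4 given here are the highest of this list by mean log2 level. ATP citrate lyase (Acly), which returns citrate to acetyl-CoA in the cytosol, was detected in all 8 with a median of 351 RPM. Glutamate dehydrogenase (Glud1), which feeds oxoglutarate to the cycle, was detected in all 8 at 142 to 486 RPM. The aspartate/glutamate carrier Slc25a12 had a median of 218 RPM and missed cell 4 (0.202 RPM). Pgls of the pentose phosphate branch was detected in all 8 with a median of 119 RPM. Of 11 partner proteins of the listed enzymes, 3 were detected in at least 6 cells, beside the same 14.2% of all symbols. Bsg is given above, and another, named after its values were seen, was Bpgm, which makes 2,3-bisphosphoglycerate (median 5.07 RPM, 228 RPM in cell 4).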

How the data were processed

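Single cells were lysed and their RNA was reverse transcribed, amplified by PCR and made into sequencing libraries, per the labels' protocols. The submitters' processing notes name Bowtie and build mm10. For the counter, annotation, strand setting and multiply matching reads, no description is given in the sources used here. For each cell the authors deposited a raw read count and an RPM value per gene symbol, per the file headers. RPM equalled the count divided by the cell's sum of counts, to within 4e-06. It corrects for depth but not for length or yield.

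From these values, log2(RPM + 1), detection at 1 RPM and, between genes, log2(RPM per kb + 1) over the longest protein-coding transcript (GENCODE M21, same build) were computed with Python 3.11.15, pandas 2.3.3 and numpy 2.4.6. Counting scripts were tested on simulated data. Copies were searched with blastn 2.17.0 and promoter windows came from RefSeq. The text names the 55 genes, the 4 highest genes by mean log2 level of each related list, and markers with their list. Other genes are named with a statement to that effect, and some genes that the rule takes are not reported here. Members, steps, pairs and lists were chosen with earlier results of these data known. Tigar, of the partner list, matched no symbol. Alternatives were the detection limit, the constant added, the length, the genes with copies, the margin, and each cell left out.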

Additional observations from a re-analysis of the deposited data

Results flagged for a closer look

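For 81 values (genes and pairs) the gap between the most extreme of the 8 cells and its nearest neighbour was divided by the range, and 11 passed the 95% limit of Dixon's test. Chance alone passes about 1 in 20 such sets, and genes at 0 in most cells pass readily.

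In 6 of them a gene was seen in a single cell at 1 RPM or more: Slc2a1 in cell 3 (68.2 RPM), Pfkfb3 in cell 4 (77.9 RPM), Slc16a3 in cell 4 (42.9 RPM), Eno1 in cell 8 (1.74 RPM), Suclg2 in cell 8 (4.79 RPM) and Me3 in cell 8 (230 RPM). Ldhb was high in cell 7 (9.40 RPM), with 1.74 RPM or less elsewhere. In 3 others a widely expressed gene was low in 1 cell: Pfkm in cell 6 (0.141 RPM), Tpi1 in cell 7 (0.154 RPM) and Mdh1 in cell 4 (32.2 RPM). The last was the pair Eno1 minus Eno2, at -3.69 log2 units in cell 1, the cell with the most Eno2.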

How the results depend on the processing

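The count of genes detected in at least 6 cells was 29, and 22 to 36 at limits of 10 and 0.1 RPM. The steps filled in every cell went from 13 to 9 and 16 at the same limits. The consistently led pairs stayed between 9 and 11 of 25 under every setting of length, constant and left-out cell, and were 9 of the 20 pairs with little copied sequence. With a margin of 1 log2 unit cell 4 lay above the other cells in 2 members instead of 0, and with a constant of 10 it lay below in 1 instead of 3. The share of reads was 0.612% without the genes that have copies. With each cell left out in turn the counts were 29 to 32 genes, 13 to 15 steps and 10 to 11 pairs, and the share was 0.655% to 0.737%. The medians of 7 of the 25 pairs moved by more than the SD over cells with another constant, and that of Hk1 minus Hk2 (1.10) also with the median transcript length (3.18). On plain RPM 3 medians near 0 changed sign: Mdh1 minus Mdh2, Me1 minus Me2 (0.29 against -0.03) and Pdk1 minus Pdk3 (0.17 against -0.47). No paired analysis was possible because all 8 cells belong to 1 group. With 1 sample, no animal named and PCR copies not marked, an absent gene cannot be told from one lost before amplification, and depth limits detection to 0.0993 to 0.758 RPM.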

Other observations

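Over the 8 cells, levels of the 14 members detected in every cell were ranked against one another. The median Spearman rho over 91 pairs was 0.071, and 0.167 over the 15 pairs of the 6 glycolysis members among them, beside 0.0 over all pairs of the 1173 symbols detected in every cell. The highest values were Pgk1 with Dld (0.976), Pkm with Idh3g (0.905), Mpc2 with Idh3g (0.857) and Pkm with Ldha (0.833). The lowest were Pgk1 with Ldha (-0.714), and Ldha with Dld and Ogdh with Mdh1 (both -0.619). These are the extremes of 91 values over 8 cells that share library depth with both genes, and they are given as a description.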
